A study of Mus musculus with 6 samples.

Results

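The mRNAs described here are 10 genes of the NRF2 pathway and the antioxidant response, Nfe2l2, Keap1, Nqo1, Hmox1, Gclc, Gclm, Txnrd1, Srxn1, Sod2 and Gpx4, measured in the retina of mice that lack Wfs1. They were taken by symbol from the 55376 genes of a table of RNA-seq read counts, and all 10 were found and passed the filter on low counts. The whole retina of 3 WT mice was compared with that of 3 Wfs1-KO (Wfs1-/-) mice, all 240 days old, and the question was whether loss of Wfs1, which encodes a membrane protein of the endoplasmic reticulum, changes gene expression in the retina. The KO allele lacks exon 8 of Wfs1 in every cell of the animal, and the labels give the strain of both genotypes as C57x129. Because the whole tissue was sequenced, fewer cells of a type and less RNA per cell cannot be told apart.

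NRF2, encoded by Nfe2l2, is the transcription factor that drives much of the cell's defence against oxidants and electrophiles. In unstressed cells KEAP1 binds NRF2 and presents it to a CUL3 ubiquitin ligase, so that it is degraded; oxidation of cysteines in KEAP1 lets NRF2 accumulate, enter the nucleus and, with small MAF proteins, bind antioxidant response elements near its target genes. Since this control acts mainly on the protein, mRNAs of the targets are a usual readout of the pathway. The retina uses much oxygen and its photoreceptor membranes are rich in easily oxidised lipids, which is why this defence is often studied there.

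Before the results, 1 library has to be set apart. The libraries held from 17916885 to 101334381 counts, and Wfs1-KO replicate 2 had a mean Pearson r of 0.918 with the other 5 libraries, against 0.962 to 0.971 for the others, so each result is given with and without it. Wfs1 itself was at 64.9, 61.4 and 69.9 CPM (counts scaled to library size, with sizes adjusted by TMM) in the 3 WT retinas and at 9.63, 0.900 and 11.5 CPM in the 3 Wfs1-KO retinas, which did not overlap. Rod photoreceptor markers were abundant in every retina (6 genes summing to 60900 to 68500 CPM in WT and to 61200, 44600 and 61100 CPM in KO replicates 1 to 3). In replicate 2, 4 of these 6 were below the other 5 retinas. The 6 retinal ganglion cell markers summed to 735 to 884 CPM in WT and to 654, 1040 and 735 CPM in KO. Of these 6, 4 were above the other 5 retinas in replicate 2 and 1 was below. The 5 vascular endothelium markers summed to 149 to 205 CPM in WT and 157 to 218 CPM in KO. In Wfs1-KO replicate 2, all 8 microglia and macrophage markers were above the other 5 retinas (summed level 325 CPM, WT 47.2 to 50.1 CPM), as were all 6 reactive glia markers (611 CPM, WT 52.2 to 63.0 CPM) and all 5 erythrocyte markers (480 CPM, WT 12.3 to 41.2 CPM). The reactive glia markers were also higher in the other 2 KO retinas, at 149 and 100 CPM. The 7 pigment epithelium markers summed to 102 to 150 CPM in WT, to 388 CPM in replicate 2 and to 84.0 and 46.5 CPM in the other 2 KO retinas. Of these 7, 5 were above the other 5 retinas in replicate 2 and 0 were below. The 6 Müller glia markers summed to 5040 to 5350 CPM in WT and to less in all 3 KO retinas (3970 to 4740 CPM). The 8 lens markers were near 0 throughout, at 1.36 to 1.55 CPM in WT and 2.23 to 2.96 CPM in KO, with Mip and Lim2 at 0 in at least 1 library. WT replicate 3 was the only library with more than 2 counts of the Y-linked gene Ddx3y (1137) and had 4 counts of Xist, where the others had at least 10583, so 1 WT retina came from a male and all KO retinas from females. The part of these differences in the values below was not tested.

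The promoters of these genes were searched for the core of the antioxidant response element, TGACNNNGC on either strand, from 250 bases before to 50 bases after each RefSeq start site (GRCm38.p6). Of the 10 genes, 8 had a promoter sequence, Hmox1 and Gclc had none, and 4 of the 8 held a match in at least 1 promoter. The share of genes with a match in any promoter was 16.8% of 12698 tested genes. It was 22.4% (15 of 67) among the other antioxidant pathway genes with a promoter. Counted per promoter rather than per gene, 12.4% of all 32851 promoters held a match. The 4 matches are shown because they are the sequence that the 4 promoters share; capitals mark the motif, the letters run 5′ to 3′ on the minus strand, and the flanks show how far the promoters differ around it.
Nfe2l2, chr2:75704887-75704911: agcccaccTGACTCCGCcatgcccc
Gclm, chr3:122245415-122245439: gtgagagtTGACGGTGCgcccggga
Txnrd1, chr10:82859106-82859130: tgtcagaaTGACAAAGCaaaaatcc
Srxn1, chr2:152105544-152105568: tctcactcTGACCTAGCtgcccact
The Nfe2l2 match lay on the gene's own strand, 240 to 232 bases before the start site. Those of Gclm (134 to 126 bases before) and Txnrd1 (92 to 84 bases before, in 1 of its 3 promoters) lay on the opposite strand, as did that of Srxn1, which was 28 to 36 bases after the start. The first letters of the motif are shared with the AP-1 motif TGACTCA, and a match is a description of the letters, not a bound site.

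Levels were compared between genes per kilobase of exon (RPKM). Gpx4, the selenoenzyme that reduces lipid hydroperoxides in membranes and protects cells from ferroptosis, was the most abundant of the 10 in WT retina, at 285.7 ± 67.68 RPKM (SD, n = 3), above 99.4% of tested genes. Next came Srxn1 at 30.26 ± 2.942 RPKM and Sod2 at 26.33 ± 2.683 RPKM, whose ranges over the WT retinas overlapped. Gclc (15.31 ± 1.168 RPKM), Txnrd1 (14.3 ± 0.4905 RPKM), Keap1 (13.7 ± 1.826 RPKM) and Nfe2l2 (11.46 ± 0.8102 RPKM) followed, each overlapping its neighbour in this order. Gclm lay below them at 8.543 ± 1.466 RPKM. Hmox1 (2.336 ± 0.7192 RPKM) and Nqo1 (1.946 ± 0.1474 RPKM), both widely used as NRF2 targets, were the least abundant, overlapped each other, and lay above 39.4% and 36.9% of tested genes. The WT ranges of Gpx4 and Srxn1, of Sod2 and Gclc, of Nfe2l2 and Gclm, and of Gclm and Hmox1 did not overlap.

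None of the 10 genes differed between genotypes by edgeR's quasi-likelihood test: 0 of 10 had an adjusted p under 0.05 (Benjamini-Hochberg over 18547 tested genes, of which 0.0108% were called), and 0 of 10 an unadjusted p under 0.05, which 2.81% of tested genes had. Without Wfs1-KO replicate 2, again 0 of 10 were called and 0 of 10 had an unadjusted p under 0.05, against 0.125% and 5.19% of 19178 tested genes. The fit of all 6 retinas did not call Wfs1 itself (log2 fold change -3.15, SE 0.77, adjusted p = 0.979 by edgeR), so the count of 0 in that fit has to be read beside this; Wfs1 was called without replicate 2 (log2 fold change -2.64, SE 0.16, adjusted p = 2.84e-05 by edgeR) and by DESeq2 with all 6 retinas (adjusted p = 0.000913). DESeq2 called 0 of 10 with all 6 retinas and without replicate 2, where it called 0.248% and 0.478% of its tested genes. The CPM of the genotypes overlapped for all 10 genes, with and without replicate 2, while 8.96% of tested genes did not overlap in the 6 retinas and 22.4% did not in the 5. The estimates were 5 above and 5 below 0 with all 6 retinas (median log2 fold change -0.01, over all tested genes 0.02) and 1 above and 9 below 0 without replicate 2 (median -0.07, over all tested genes 0.00). The 9 include Txnrd1 at 0.999-fold. Among the 18547 genes, 9791 were above and 8756 below 0 with all 6 retinas, and 9222 above and 9325 below without replicate 2.

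**Figure D1:**
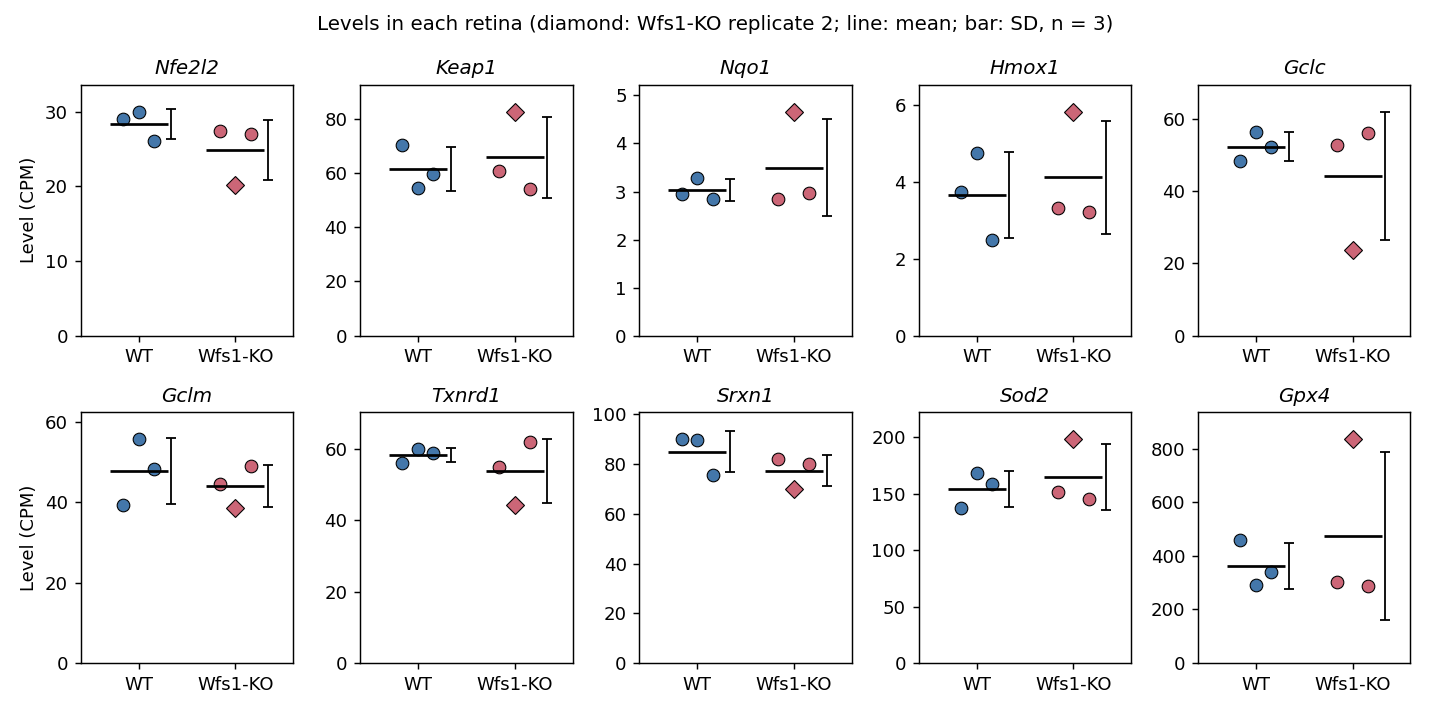
Level of each of the 10 genes (CPM, linear axes from 0) in 3 WT and 3 Wfs1-KO retinas, with Wfs1-KO replicate 2 as a diamond; lines are means and bars are SD. The genotypes overlap in every panel, and the diamond is the highest or the lowest of the 6 retinas in every panel.

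The transcription factor and its inhibitor came first. Nfe2l2 (chr2:75675513-75704641, minus strand) was at 29.0, 30.0 and 26.1 CPM in the 3 WT retinas and at 27.4, 20.2 and 27.0 CPM in Wfs1-KO replicates 1 to 3. Replicate 2 was the lowest of the 6, and the other 2 KO retinas lay inside the WT range. The log2 fold change was -0.19 (SE 0.19), and -0.07 (SE 0.14) without replicate 2, with a 95% confidence interval of 0.769 to 1.18-fold. Keap1 (chr9:21229730-21239361, minus strand) was at 70.6, 54.4 and 59.9 CPM in WT and at 60.7, 82.7 and 54.3 CPM in KO. Here replicate 2 was the highest and replicate 3 was level with the lowest WT retina. The log2 fold change of Keap1 was 0.10 (SE 0.21), and -0.11 (SE 0.15) without replicate 2 (0.737 to 1.17-fold). Keap1 overlaps a gene on the other strand, Gm16754, which had 1.7 to 2.86% as many counts as Keap1. The annotated spans of Nfe2l2, Gclm and Txnrd1 overlap other genes too. Among those, Gm17494 had 0.235 to 2.76% as many counts as Gclm. Gm38560 had 0.265 to 0.91% and Eid3 0.0 to 0.318% as many as Txnrd1. The strand setting of the counting is not given in the sources used here.

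The enzymes for quinones and haem had the fewest reads. Nqo1 (chr8:107388225-107403206, minus strand), a quinone reductase that uses NADH or NADPH, was at 2.95, 3.28 and 2.84 CPM in WT and at 2.85, 4.66 and 2.97 CPM in KO, from 50 to 294 counts a retina. Wfs1-KO replicate 2 was the highest, and the other 2 KO retinas lay between the WT values. In the fit its log2 fold change was 0.21 (SE 0.29), and -0.06 (SE 0.24) without replicate 2 (0.667 to 1.37-fold). Hmox1 (chr8:75093621-75100589, plus strand), the inducible haem oxygenase that degrades haem to biliverdin, iron and carbon monoxide, was at 3.75, 4.75 and 2.5 CPM in WT and at 3.32, 5.83 and 3.22 CPM in KO, from 44 to 342 counts. The WT retinas alone spanned most of the range, and the value of 2.5 CPM in WT replicate 3 has a counting interval of 1.81 to 3.35 CPM (exact Poisson, counting error only). The log2 fold change of Hmox1 was 0.16 (SE 0.36), and -0.19 (SE 0.28) without replicate 2. Its interval, 0.571 to 1.34-fold, reached furthest down among the 10 genes in that fit, and Nqo1's furthest up.

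Glutathione synthesis was represented by the subunits of glutamate-cysteine ligase, the rate-limiting enzyme. Gclc (chr9:77754535-77794485, plus strand), the catalytic subunit, was at 48.5, 56.5 and 52.3 CPM in WT and at 52.9, 23.8 and 56.1 CPM in KO. Replicate 2 was below all others, at 0.446 of their mean, and the other 2 KO retinas lay within the WT range. For Gclc the log2 fold change was -0.24 (SE 0.32) with all 6 retinas and 0.05 (SE 0.13) without replicate 2, where the interval was 0.845 to 1.27-fold. Gclm (chr3:122245557-122270732, plus strand), the modifier subunit that raises the activity of the ligase, was at 39.3, 55.6 and 48.3 CPM in WT and at 44.6, 38.6 and 49.0 CPM in KO. Its lowest WT and KO values differed little, and its log2 fold change was -0.12 (SE 0.20), or -0.03 (SE 0.16) without replicate 2 (0.762 to 1.25-fold).

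The enzymes that restore thioredoxin and peroxiredoxins came next. Txnrd1 (chr10:82833951-82897712, plus strand), the cytosolic thioredoxin reductase, a selenoenzyme, was at 56.0, 59.9 and 58.8 CPM in WT and at 55.0, 44.2 and 61.9 CPM in KO. The WT values were close together, with 1 KO retina above them and 2 below. Its log2 fold change was -0.12 (SE 0.18), and 0.00 (SE 0.13) without replicate 2 (0.819 to 1.22-fold). Srxn1 (chr2:152105524-152111376, plus strand), sulfiredoxin, which repairs hyperoxidised peroxiredoxins, was at 90.0, 89.7 and 75.5 CPM in WT and at 81.9, 70.2 and 80.2 CPM in KO. All KO values lay below the 2 highest WT values, but WT replicate 3 was lower than 2 of the KO retinas. The log2 fold change of Srxn1 was -0.14 (SE 0.16), and -0.08 (SE 0.14) without replicate 2 (0.769 to 1.17-fold).

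Of the enzymes that remove superoxide and lipid peroxides, Sod2 (chr17:13007817-13020134, plus strand), the manganese superoxide dismutase of mitochondria, was at 137, 168 and 158 CPM in WT and at 151, 198 and 145 CPM in KO. Replicate 2 was the highest, and the other KO values lay within the WT range. For Sod2 the log2 fold change was 0.09 (SE 0.19), and -0.07 (SE 0.13) without replicate 2 (0.777 to 1.17-fold). Gpx4 (chr10:80053488-80056439, plus strand) was at 459, 292 and 340 CPM in WT and at 301, 835 and 286 CPM in KO. Replicate 2 was 2.49 times the mean of the other 5 retinas, the largest such ratio of the 10 genes. KO replicate 1 lay at the low end of the WT range and KO replicate 3 slightly below it. For Gpx4 the log2 fold change was 0.38 (SE 0.44; 0.640 to 2.66-fold) with all 6 retinas and -0.31 (SE 0.18; 0.608 to 1.06-fold) without replicate 2. The pseudogene Gpx4-ps2 had 5.29 to 9.13% as many counts as Gpx4, so that a part of the reads of Gpx4 could have been assigned there.

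**Figure D2:**
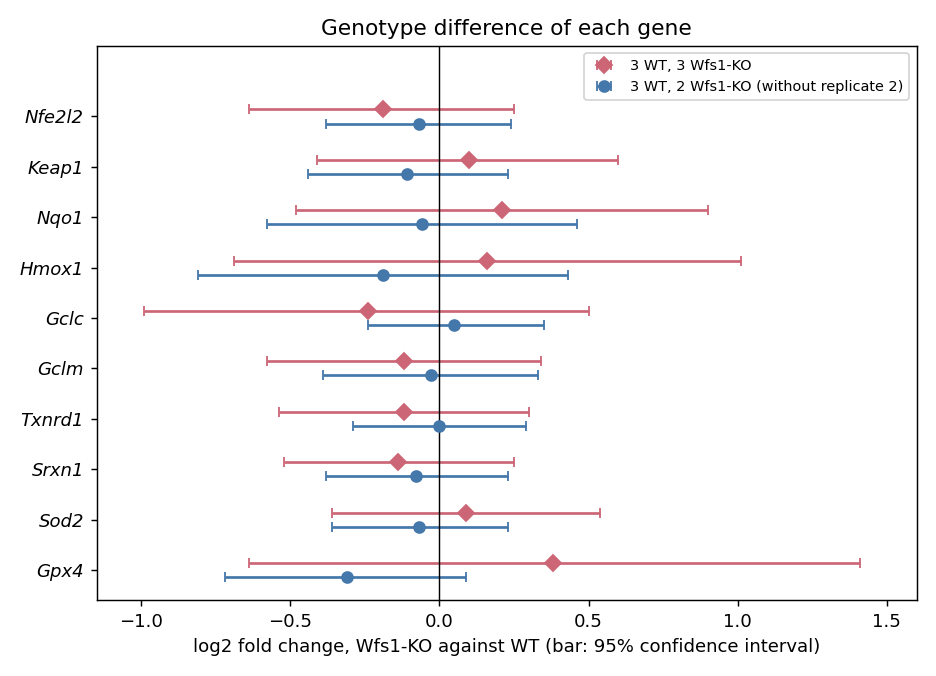
Log2 fold change of each gene in Wfs1-KO against WT by edgeR's quasi-likelihood fit (x axis), with 95% confidence intervals, for all 6 retinas and without Wfs1-KO replicate 2. All intervals include 0, and all are wider with replicate 2 than without it, those of Gclc and Gpx4 by the most.

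With all 6 retinas the 95% intervals ran from 0.503-fold (lower bound of Gclc) to 2.66-fold (upper bound of Gpx4), and without replicate 2 from 0.571-fold (Hmox1) to 1.37-fold (Nqo1). For Nfe2l2, Keap1, Gclc, Gclm, Txnrd1, Srxn1 and Sod2 the intervals without replicate 2 lay within 0.737 to 1.27-fold. Relative to the WT spread, both other KO retinas lay within the WT range for 7 of the 10 genes, a share of 70.0%, which 44.2% of all tested genes met; the exceptions were Keap1, Txnrd1 and Gpx4.

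Wfs1-KO replicate 2 lay outside the range of the other 5 retinas for all 10 genes, as it did for 75.3% of all tested genes. It was above them for Keap1, Nqo1, Hmox1, Sod2 and Gpx4 (38.4% of all tested genes) and below them for Nfe2l2, Gclc, Gclm, Txnrd1 and Srxn1 (36.8%), so its departure had no common direction among the 10. Over all tested genes its ratio to the mean of the other 5 varied with exon length: the median log2 ratio was 0.56 for the 6191 shortest genes (54 to 2142 bases), 0.00 for the 6176 of middle length and -0.45 for the 6180 longest (3998 to 123179 bases). The 3 shortest of the 10 genes, Gpx4 (1272 bases), Nqo1 (1553 bases) and Hmox1 (1569 bases), had the highest ratios, 2.49, 1.57 and 1.66. The other 7, from 2475 to 5861 bases, had ratios from 0.446 to 1.38, with Keap1 (4499 bases) and Sod2 (5861 bases) above 1. The part of length in these values was not tested.

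**Figure D3:**
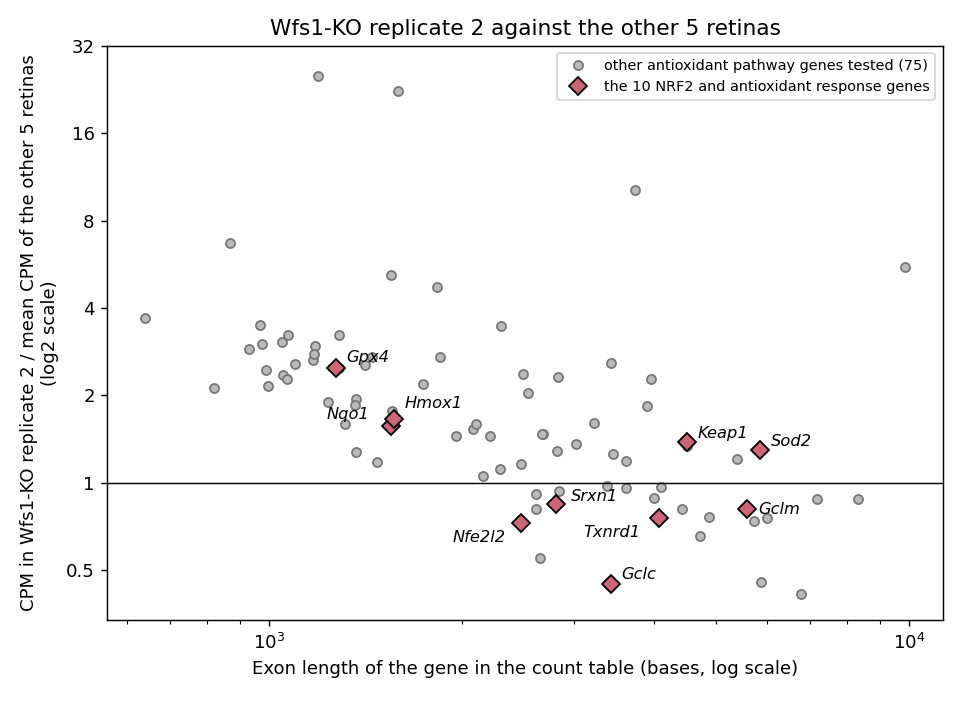
CPM in Wfs1-KO replicate 2 divided by the mean CPM of the other 5 retinas (y axis, log scale) against exon length in bases (x axis, log scale) for the 10 genes (diamonds) and the 75 other antioxidant pathway genes tested (circles). Gpx4, Hmox1 and Nqo1, the shortest of the 10, lie above 1, and Gclc is the lowest of the 10 at 0.446.

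Ratios of partner genes, each per length and within a retina, were compared with exact two-sided permutation tests, for which the smallest possible p with 3 against 3 retinas is 0.1. The ratio of Gclm to Gclc, modifier to catalytic subunit, was 0.496, 0.604 and 0.566 in WT and 0.516, 0.995 and 0.536 in KO (log2 difference 0.23, exact p = 0.8). That of Nfe2l2 to Keap1 was 0.746, 1.0 and 0.792 in WT and 0.821, 0.443 and 0.903 in KO (log2 difference -0.28, exact p = 0.6). Replicate 2 alone lay apart in both. The ratio of Txnrd1 to Txn1, the cytosolic thioredoxin that it reduces, was 0.281, 0.352 and 0.38 in WT and 0.357, 0.113 and 0.395 in KO (log2 difference -0.41, exact p = 0.9). The ratio of mitochondrial Sod2 to cytosolic Sod1 was 0.0905, 0.146 and 0.138 in WT and 0.134, 0.0439 and 0.125 in KO (log2 difference -0.43, exact p = 0.5). Benjamini-Hochberg adjustment over the 4 ratios gave an adjusted p of 0.9 for each in these exact permutation tests. Without replicate 2 all 4 differences had the opposite sign, at -0.07, 0.04, 0.16 and 0.09.

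A further 78 genes of the pathway were listed in 7 role groups, and 75 passed the filter (Gpx2, Gsta1 and Ugt1a6a did not). None of the 75 was called by edgeR's quasi-likelihood test or by DESeq2, with or without Wfs1-KO replicate 2. With all 6 retinas DESeq2 gave no adjusted p for Gpx3 and Gstm2, so it could not call them there. At an unadjusted p under 0.05, edgeR had 1 of 75 with all 6 retinas (Slc7a11, higher; 2.81% of all tested genes) and 5 of 75 without replicate 2 (5.19% of all tested genes; Slc7a11 and Slc40a1 higher, Maff, Ggct and Gpx3 lower). With 6 retinas 62 estimates were above 0 and 13 below (median log2 fold change 0.29), and without replicate 2, 21 were above and 54 below (median -0.07). Over all 18547 genes, 9791 were above and 8756 below with 6 retinas (median 0.02), and 9222 and 9325 without replicate 2 (median 0.00). Replicate 2 was above the other 5 retinas for 54 of the 75 genes and below for 10, against 38.4% above and 36.8% below among all tested genes. Of the 75, 36 belonged to the shortest of these 3 classes of length, and 35 of them were above, against 60.6% of all tested genes in that class. Among the 26 of middle length, 16 were above and 3 below, against 36% and 34.3% of all tested genes in that class. Among the 13 longest, 3 were above and 7 below, against 18.6% and 59.4%.

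The turn from positive to negative medians was found in 6 of the 7 groups. The 8 genes for superoxide and peroxide removal had a median log2 fold change of 0.71 with 6 retinas and -0.18 without replicate 2, and the 15 thioredoxins, peroxiredoxins and glutaredoxins 0.29 and -0.10. For the 18 genes of conjugation, reduction and export the medians were 0.46 and -0.06, for the 8 of glutathione synthesis, uptake and recycling 0.18 and -0.05, for the 7 of NADPH supply 0.17 and -0.01, and for the 12 NRF2 regulators and partners 0.06 and -0.03. The 7 genes of haem and iron had 0.24 and 0.02.

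**Figure D4:**
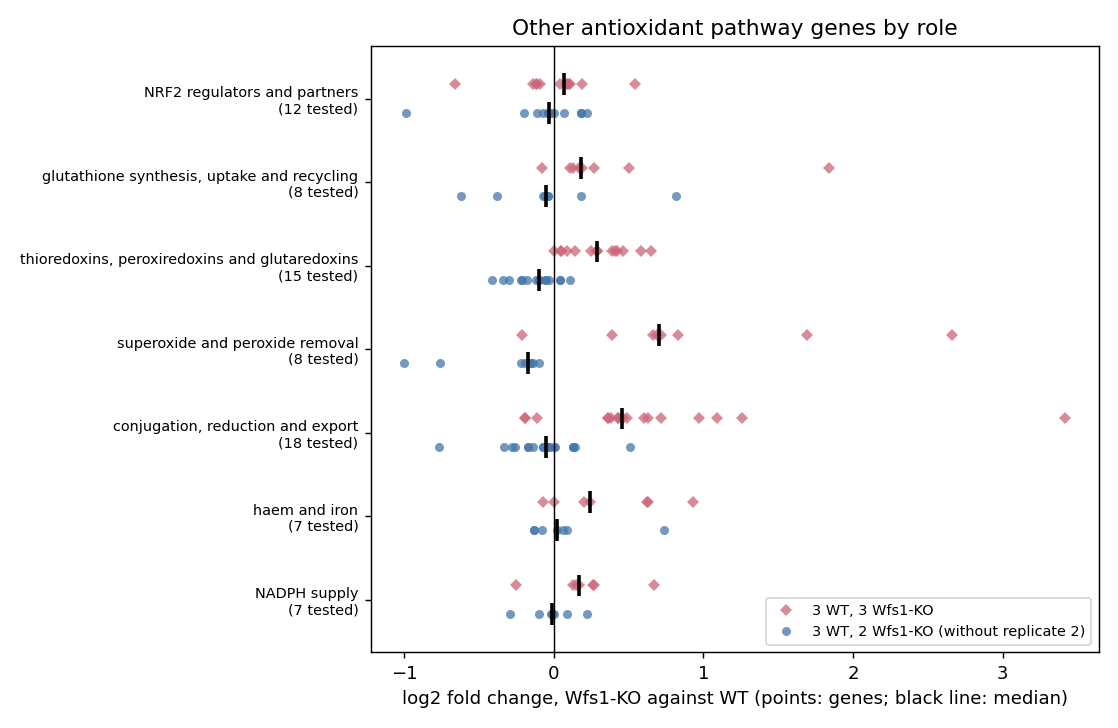
Log2 fold change, Wfs1-KO against WT (x axis), of the 75 other antioxidant pathway genes tested, by role group (y axis), with 3 KO retinas (diamonds) and without Wfs1-KO replicate 2 (circles); black lines are medians. The medians are at 0.06 to 0.71 with replicate 2 and at -0.18 to 0.02 without it.

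The most abundant gene of each group moved with replicate 2 in the same manner. Sod1, the cytosolic copper-zinc superoxide dismutase, was at 166, 126 and 125 CPM in WT and at 123, 493 and 127 CPM in KO, so that only replicate 2 was high (log2 fold change 0.83 with 6 retinas, -0.16 without it). Prdx2, a thioredoxin-dependent peroxidase, was at 213, 184 and 181 CPM in WT and at 163, 482 and 152 CPM in KO (0.46, and -0.30 without replicate 2), with both other KO retinas below WT. Park7, encoding DJ-1, was at 223, 160 and 167 CPM in WT and at 177, 448 and 173 CPM in KO (0.54, and -0.07 without replicate 2). In each of these genes the high KO mean rested on 1 retina. Gstp1, a glutathione transferase, Fth1, the ferritin heavy chain, Tkt, the transketolase of the pentose phosphate pathway, and Slc3a2, the heavy chain of the cystine-glutamate exchanger and of other transporters, had log2 fold changes of 0.43, 0.24, 0.26 and 0.11 with 6 retinas and of -0.04, -0.13, -0.01 and -0.07 without replicate 2.

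Slc7a11, the light chain of the cystine-glutamate exchanger that supplies cysteine for glutathione and a known NRF2 and ATF4 target, was at 2.98, 5.72 and 5.79 CPM in WT and at 11.1, 34.7 and 5.70 CPM in KO. KO replicates 1 and 2 were above all WT retinas and replicate 3 was within the WT range. Its log2 fold change was 1.84 (SE 0.65), with an adjusted p of 0.979 by edgeR's quasi-likelihood test, and 0.82 (SE 0.33, adjusted p = 0.870) without replicate 2. Its annotated span overlaps other genes on either strand, and whether reads of their exons are part of its count was not tested.

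A few genes were chosen after their values were seen because the unrounded CPM of the genotypes did not overlap or the unadjusted p was under 0.05. Me1, malic enzyme, a source of NADPH, was at 146, 174 and 174 CPM in WT and at 196, 209 and 190 CPM in KO (log2 fold change 0.27, SE 0.16, and 0.22 without replicate 2). Maff, a small MAF partner of NRF2, was at 1.75, 2.02 and 1.59 CPM in WT and at 0.844, 1.59 and 0.976 CPM in KO (log2 fold change -0.66, SE 0.37, and -0.99, SE 0.32, without replicate 2). These 2 were the only ones of the 75 whose genotypes did not overlap with 6 retinas (8.96% of all tested genes), where for Maff WT replicate 3 (28 counts) and KO replicate 2 (67 counts) were equal to the digits given and do not separate beyond counting error, and 16 of 75 did not overlap without replicate 2 (22.4%). Slc40a1, the iron exporter ferroportin, was at 4.40, 5.19 and 2.84 CPM in WT and at 7.12, 5.16 and 6.99 CPM in KO, where replicate 2 was the lowest KO retina (log2 fold change 0.63, and 0.74 without it). Gpx3, the secreted glutathione peroxidase, was at 11.8, 9.92 and 30.3 CPM in WT and at 8.35, 309 and 8.76 CPM in KO, and its log2 fold change was 2.66 (SE 1.39) with replicate 2 and -1.0 (SE 0.40) without it. The summed pigment epithelium markers were likewise high in Wfs1-KO replicate 2 and below WT in the other 2 KO retinas. In WT replicates 1 to 3 they summed to 102, 150 and 114 CPM, whereas Gpx3 was highest in WT replicate 3. The part of these markers in the values of Gpx3 was not tested.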

How the data were processed

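Total RNA of whole retina was sequenced. Per the labels, the authors trimmed reads with Trimmomatic 0.39, aligned them to mm10 with STAR 2.5.3a and counted them per gene with featureCounts 1.6.4; the deposited values are raw counts, without normalization. Library columns were matched to samples by their names (control letters as WT), and 2 of 8 columns that match no sample were not used. Each genotype has 4 columns, and the number in a column name was assumed to be the replicate number of the sample title. The libraries used by the authors may therefore differ from these 6. Counts were tested with edgeR 4.0.16 (filterByExpr, TMM, quasi-likelihood test, genotype as the term, R 4.3.3), with Benjamini-Hochberg adjustment over all tested genes at 0.05. CPM used TMM library sizes and RPKM the deposited exon length. Positions are those of GENCODE M21, which matched 98.4% of genes by symbol and chromosome. A count of 3 corresponded to 0.0291 to 0.17 CPM. The script was tested on simulated data. Alternatives were DESeq2 1.42.0, RLE scaling, no filter, a stricter filter, the replicate block and leaving out each retina. Pathway genes were named as the most abundant of each group plus those at an unadjusted p under 0.05. The genes and lists were chosen with earlier results of these data known. Per the study's methods, the 3 retinas of a genotype came from different mice.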

Additional observations from a re-analysis of the deposited data

How the results depend on the processing

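None of the 10 genes was called under any of the 11 alternatives tried for each. Only DESeq2 and the fit without Wfs1-KO replicate 2 called Wfs1 itself. In the others its adjusted p was 0.242 or more by edgeR's quasi-likelihood test. Leaving out any WT retina called 0 genes over the whole table. The count of 0 of the 10 in those alternatives has to be read beside this. Of 110 alternative log2 fold changes 102 kept their sign, and the 8 that did not all came from leaving out 1 retina. Leaving out each retina in turn gave -0.11 to 0.21 for Keap1, -0.06 to 0.33 for Nqo1, -0.19 to 0.39 for Hmox1, -0.45 to 0.05 for Gclc, -0.24 to 0.01 for Gclm, -0.07 to 0.17 for Sod2 and -0.31 to 0.64 for Gpx4; the sign turned without Wfs1-KO replicate 2, except for Gclm, which turned without WT replicate 2, and Hmox1, which turned also without WT replicate 3. The median of the 10 ranged from -0.094 to 0.012. For the other pathway genes the median ranged from -0.07 to 0.449, with Park7 at -0.07 to 0.77, Slc3a2 at -0.07 to 0.19, Prdx2 at -0.30 to 0.74, Sod1 at -0.16 to 1.15, Gstp1 at -0.04 to 0.63, Fth1 at -0.13 to 0.40, Tkt at -0.01 to 0.40, Gpx3 at -1.0 to 3.29 and Ggct at -0.38 to 0.52, each lowest without Wfs1-KO replicate 2. The log2 ratio differences ranged from -0.07 to 0.40 (Gclm to Gclc), -0.48 to 0.04 (Nfe2l2 to Keap1), -0.74 to 0.16 (Txnrd1 to Txn1) and -0.72 to 0.09 (Sod2 to Sod1). Over all genes, 2 were called by edgeR, 49 by DESeq2 (95 without Wfs1-KO replicate 2), 9 without a filter and 0 to 24 with 1 retina left out. Pathway genes at an unadjusted p under 0.05 numbered 1 with edgeR, 2 with DESeq2, 5 without a filter and 0 to 5 with 1 retina left out, and those not overlapping 2, or 16 without Wfs1-KO replicate 2 (an alternative chosen after seeing the data, as was DESeq2 without it). The cause of these shifts was not tested. The replicate numbers did not pair the retinas (correlations of same-numbered deviations -0.234, -0.111 and 0.0784); with the replicate block 1 gene was called, and 0 of the 10. Depth limits Nqo1 and Hmox1 most, with as few as 50 and 44 counts in a retina.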
